A study of Mus musculus with 22 samples.

Results

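The imprinted genes of distal mouse chromosome 7 described here are H19, Igf2, Ascl2, Kcnq1, Cdkn1c, Slc22a18 and Phlda2, named in their order along the chromosome. They were chosen by symbol as listed genes of the H19-Igf2 and the Kcnq1 imprinted domains, and make up 7 of the 37991 genes in the count table of the Tet1 cross. All 7 were also found in the table of the MF1 cross. They were followed through 22 libraries beside Nr2f2 and Col3a1, a transcription factor and a collagen of mesenchyme, which served as a gauge of RNA from somatic neighbours.

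RNA was sequenced from sorted mouse primordial germ cells (PGCs), from which oocytes and sperm later form. In the Tet1 cross both parents were heterozygous for Tet1, whose product converts 5-methylcytosine to 5-hydroxymethylcytosine, and both carried GOF18∆PE-EGFP, a reporter that marks germ cells with green fluorescent protein under control of Pou5f1 sequence. Its Tet1-KO and Tet1-WT embryos were taken at E10.5, with the sexes mixed, and, split by sex, at E12.5 and at E14.5, which makes 10 groups. In the MF1 cross, MF1 females were mated with GOF18∆PE-EGFP males, and their wild-type PGCs were taken at E10.5. Each group held 2 libraries. A library of the Tet1 cross was made from the pooled RNA of 2 to 6 embryos, or 1000 to 8000 cells, and a library of the MF1 cross from 600 to 1000 cells. The p-values below therefore rest on the spread between the 2 pools of a group, estimated together over all groups of a fit. The labels do not describe the Tet1 allele or the cells that its loss reached. With 2 libraries on each side, groups often fail to overlap without any difference between them. The share of all genes without overlap was not counted, so overlap is given below as a description only.

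Imprinted genes are transcribed mainly from the copy of 1 parent, because a control region nearby carries DNA methylation from the egg or the sperm. In the H19-Igf2 domain the unmethylated maternal control region binds CTCF and keeps shared enhancers from Igf2, which leaves H19 to the maternal and Igf2 to the paternal copy. In the Kcnq1 domain the long noncoding RNA Kcnq1ot1 starts inside Kcnq1 on the paternal copy, and Kcnq1, Cdkn1c, Slc22a18, Phlda2 and, in placenta, Ascl2 are expressed from the maternal copy. PGCs erase these marks before new ones are set in the germ line. IGF2 is a fetal growth factor and H19 is a noncoding RNA that hosts miR-675. CDKN1C is a cyclin-dependent kinase inhibitor that slows division, PHLDA2 restrains placental growth, SLC22A18 is a membrane transporter, ASCL2 is a transcription factor needed in the trophoblast, and KCNQ1 is a potassium channel. The counts did not separate parental copies, so every value below is the total of both.

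Total counts ran from 9616436 to 25899505 per library in the Tet1 cross and were 59415040 and 66924911 in the MF1 cross. Levels are given in CPM, counts scaled to the library total after that total was adjusted by its TMM factor (0.9124 to 1.081), a correction for differences in RNA composition. The germ cell markers summed to between 1671 and 12270 CPM, with none at 0 in both libraries of a group, and were lowest in E10.5 Tet1-WT (1671 and 1995 CPM, against 4292 and 6568 CPM where the label is Tet1-KO). Tet1 itself was lower in both Tet1-KO libraries than in both Tet1-WT libraries at E12.5 and E14.5, but its reads remained. Its Tet1-KO means were 61.0 (F) and 81.9 CPM (M) at E12.5 and 23.4 and 89.7 CPM at E14.5. Its fall had an adjusted p under 0.05 in edgeR's test in E12.5 females alone. At E10.5 it was at 133.9 and 76.8 CPM in Tet1-WT and at 44.5 and 102 CPM under the label Tet1-KO. The value of 102 CPM lay between those of Tet1-WT, and each E10.5 direction below is between labels. The 15 mesenchyme markers summed to 1701 and 2020 CPM in E10.5 Tet1-WT, against 402.8 and 887.7 CPM under the label Tet1-KO. At E12.5 they summed to 817.7 and 1148 CPM in female Tet1-WT against 45.7 and 48.7 CPM in Tet1-KO, and to 1193 and 1873 CPM in male Tet1-WT against 171 and 269.7 CPM in Tet1-KO. At E14.5 every library was between 14.8 and 40.5 CPM. In a bulk library, fewer cells of a type and less RNA per cell cannot be told apart.

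Promoters are shown for Phlda2 and Slc22a18, neighbours on the chromosome whose levels correlated at 0.803 over the 20 libraries of the Tet1 cross. They did not move alike in every comparison: from E12.5 to E14.5 in Tet1-WT, Phlda2 was called lower in both sexes and Slc22a18 in neither. Each runs from 250 bases before to 50 bases after the RefSeq start, 5′ to 3′ on the gene's strand, in build GRCm38.p6, with every CpG in capitals, since CpG is the site that TET1 acts on when methylated. The Phlda2 window lies at chr7:143502475-143502774 on the minus strand and that of Slc22a18 at chr7:143473539-143473838 on the plus strand.
Phlda2: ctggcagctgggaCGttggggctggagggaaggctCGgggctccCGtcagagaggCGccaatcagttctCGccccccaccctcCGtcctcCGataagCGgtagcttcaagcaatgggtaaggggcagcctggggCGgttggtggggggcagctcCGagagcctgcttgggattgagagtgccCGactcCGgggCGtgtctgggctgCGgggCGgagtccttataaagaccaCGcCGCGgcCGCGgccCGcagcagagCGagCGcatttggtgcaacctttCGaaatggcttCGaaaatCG
Slc22a18: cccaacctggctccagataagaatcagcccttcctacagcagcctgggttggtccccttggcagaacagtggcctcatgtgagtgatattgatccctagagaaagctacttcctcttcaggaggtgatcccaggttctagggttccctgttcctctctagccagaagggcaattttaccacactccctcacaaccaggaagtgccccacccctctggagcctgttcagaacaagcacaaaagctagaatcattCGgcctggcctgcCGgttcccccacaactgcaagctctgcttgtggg
The Phlda2 window holds 26 CpG, more than 83.1% of the 32851 windows of this length in the table, and the Slc22a18 window holds 2, where the median window holds 7. The Ascl2 window held 23, and the 4 starts of Igf2 held 2, 14, 24 and 7. RefSeq windows were matched for these 4 genes, and H19, Cdkn1c and Kcnq1 had none in the table. The letters TATAAA, searched on both strands, occur once in the Phlda2 window and in 13.6% of all windows. The H19 transcript also carries miR-675, whose mature forms (RefSeq, GRCm38.p6) are shown with the seed, bases 2 to 8, in capitals to make plain that the arms of the hairpin differ in their seeds. They lie at chr7:142577112-142577133 and chr7:142577078-142577099, both on the minus strand, and were not measured here.
miR-675-5p: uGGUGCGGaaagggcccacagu
miR-675-3p: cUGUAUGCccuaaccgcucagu

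H19, Igf2 and Cdkn1c were lower, and Phlda2 higher, in the E10.5 libraries labelled Tet1-KO than in E10.5 Tet1-WT, with 4 of 7 members called where 8.81% of the 17567 genes tested were. The noncoding RNA H19 was at 539.8 and 613 CPM in Tet1-WT and at 189 and 204 CPM under the label Tet1-KO. The growth factor gene Igf2 was at 546 and 471 CPM against 101 and 225 CPM. For both genes each library labelled Tet1-KO was below each Tet1-WT library, and the libraries labelled Tet1-KO were closer to each other for H19 than for Igf2. H19 fell by 1.55 ± 0.31 on the log2 scale (± SE throughout), with an adjusted p of 0.00717 in edgeR's quasi-likelihood test after Benjamini-Hochberg adjustment, and Igf2 fell by 1.64 ± 0.41 (adjusted p = 0.0226). Cdkn1c, the cell cycle inhibitor of the Kcnq1 domain, was at 259 and 225 CPM in Tet1-WT and at 62.1 and 95.5 CPM under the label Tet1-KO, without overlap, and fell by 1.62 ± 0.36 (adjusted p = 0.0135). These 3 of 7 members were called lower at E10.5, where 4.7% of all genes were.

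Phlda2 went the other way at E10.5. It was at 70.5 and 55.3 CPM in Tet1-WT and at 311 and 179.6 CPM under the label Tet1-KO, again with no overlap between the labels. Its log2 difference was 1.96 ± 0.49 (adjusted p = 0.0242), and it was the 1 member called higher where 4.1% of all genes were. Slc22a18 was at 2.71 and 1.24 CPM in Tet1-WT and at 12.6 and 13.5 CPM under the label Tet1-KO. The labels did not overlap, but the difference of 2.72 ± 1.16 did not pass the test (adjusted p = 0.154).

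At this stage Nr2f2 was at 623 and 769 CPM in Tet1-WT and at 141 and 328 CPM under the label Tet1-KO, and fell by 1.57 ± 0.39 (adjusted p = 0.0232). Col3a1 was at 279.8 and 369 CPM against 91.2 and 186 CPM (adjusted p = 0.0988). All 15 mesenchyme markers had a lower fitted level in the libraries labelled Tet1-KO, with a median log2 difference of -1.57, of which 1 was called, Nr2f2. Their part in the results for H19, Igf2 and Cdkn1c was not tested. In a fit that took the log2 of their summed level as a covariate no member was called at E10.5. That level itself differed between the groups compared, here and wherever this fit is cited below. Such a fit therefore cannot separate it from genotype or stage. A fit of the 4 libraries alone also called none, with the same 4 directions. Without Tet1-KO replicate 1, H19 alone was called, and without either Tet1-WT replicate, H19 and Cdkn1c.

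**Figure D1:**
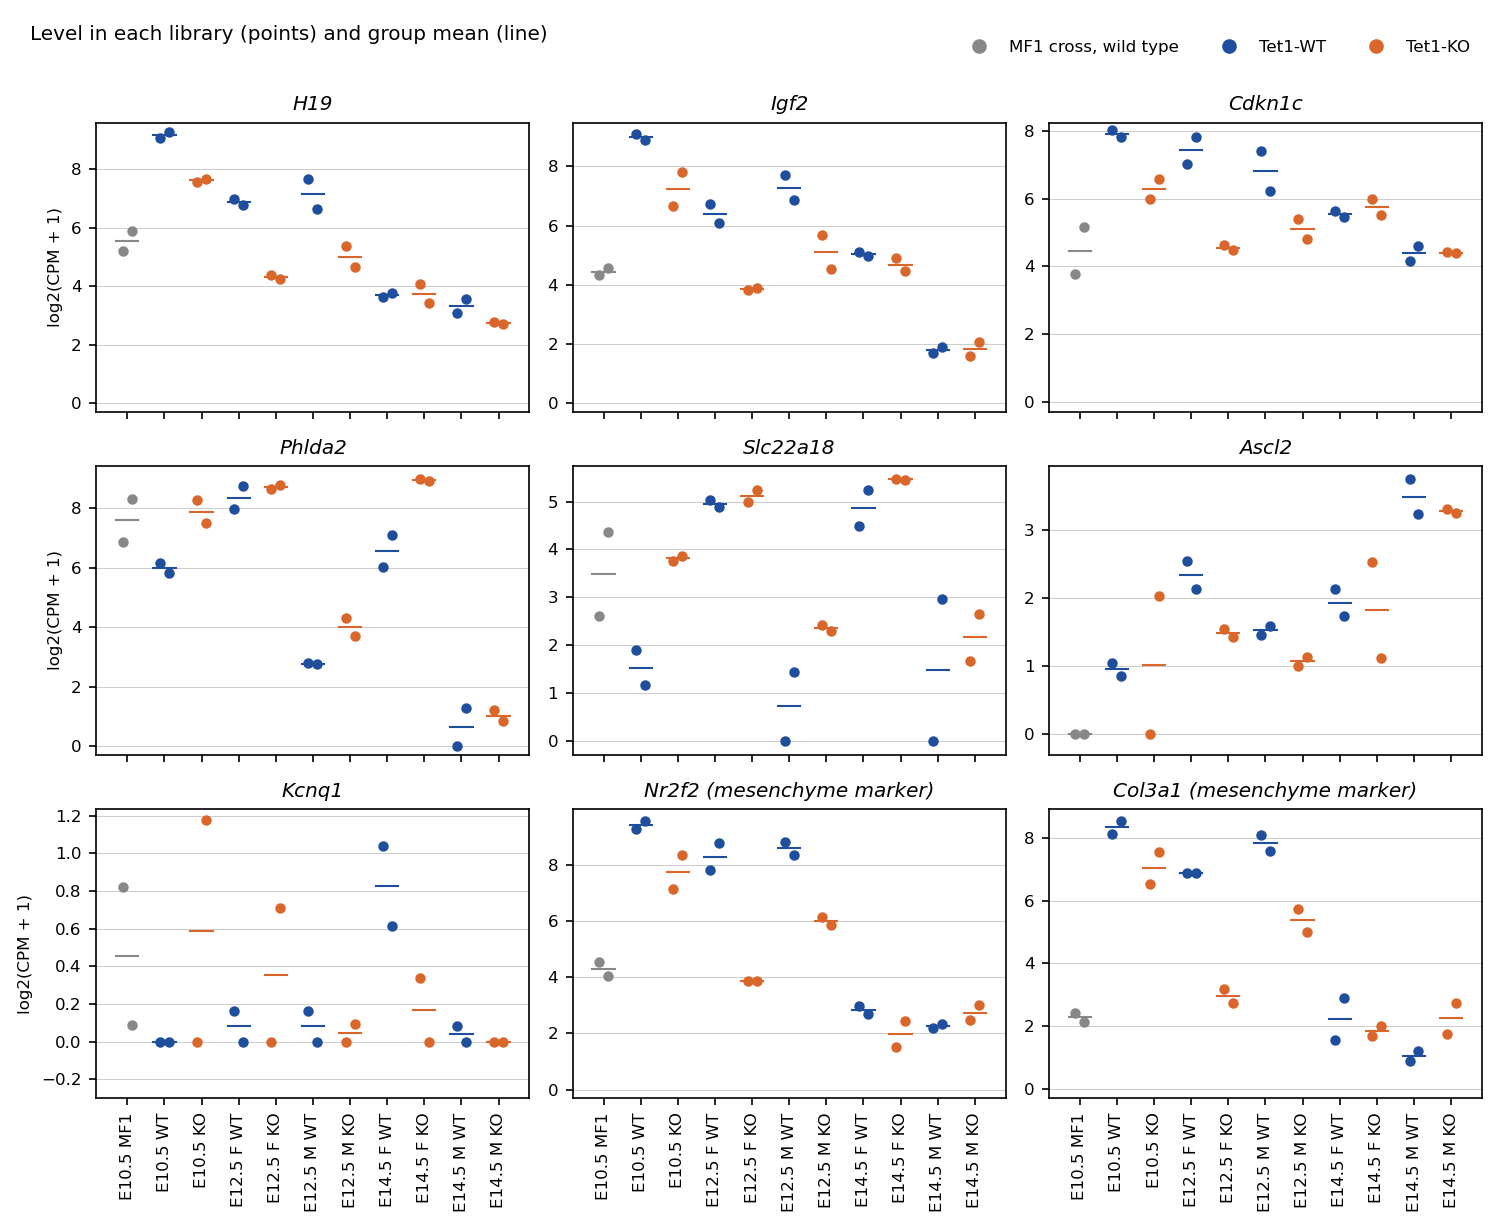
Level of the 7 genes and of the mesenchyme markers Nr2f2 and Col3a1 in each library, as log2(CPM + 1) on the vertical axis, for the 11 groups on the horizontal axis (F female, M male); points are libraries and lines are the mean of the 2 log values. H19, Igf2, Cdkn1c and both markers are lower at E14.5 than in E10.5 Tet1-WT, but by unlike amounts: mean Cdkn1c goes from 241.9 to 45.9 (F) and 20.1 CPM (M), and mean Nr2f2 from 695.8 to 6.10 and 3.84 CPM. Phlda2 and Slc22a18 are high in females at E12.5 and E14.5, and Kcnq1 never exceeds 1.26 CPM.

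In E12.5 female germ cells H19, Igf2 and Cdkn1c were again lower in Tet1-KO than in Tet1-WT libraries. H19 was at 125 and 109 CPM in Tet1-WT and at 19.7 and 18.0 CPM in Tet1-KO. Igf2 was at 106 and 66.5 CPM against 13.1 and 13.7 CPM, and Cdkn1c at 129 and 226 CPM against 23.6 and 21.2 CPM. In all 3 genes the Tet1-KO libraries lay close together and far below both Tet1-WT libraries. The log2 differences were -2.63 ± 0.32 for H19 (adjusted p = 0.000671), -2.68 ± 0.43 for Igf2 (adjusted p = 0.00474) and -2.98 ± 0.38 for Cdkn1c (adjusted p = 0.000826). These were 3 of 7 members called lower, where 1.15% of all genes were, and none was called higher, where 0.142% were (1.29% in either direction).

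Phlda2 was high in both genotypes of E12.5 females, at 249.8 and 431 CPM in Tet1-WT and at 398 and 438 CPM in Tet1-KO, and the genotypes overlapped. Slc22a18 was at 31.6 and 28.6 CPM against 30.8 and 36.8 CPM, likewise with overlap. Beside these, Nr2f2 was at 226 and 436.5 CPM in Tet1-WT against 13.7 and 13.5 CPM in Tet1-KO, with a log2 difference of -4.61 ± 0.45 (adjusted p = 0.000248), and Col3a1 fell by 4.06 ± 0.51 (adjusted p = 0.000759). Of the 15 mesenchyme markers, 7 were called lower and all 15 had a lower fitted level, with a median log2 difference of -4.06. With their summed level as a covariate no member was called, and Igf2 had a log2 difference of 0.20 ± 1.33, on the other side of 0. Without either Tet1-KO library the call for Igf2 was lost.

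E12.5 male germ cells gave the same 3 calls with wider spread between the libraries. H19 was at 203 and 100 CPM in Tet1-WT and at 40.2 and 24.2 CPM in Tet1-KO. Igf2 was at 206 and 114 CPM against 50.8 and 22.3 CPM, and Cdkn1c at 169 and 73.8 CPM against 41.5 and 26.9 CPM. Tet1-WT replicate 1 held the highest value of each gene, and no Tet1-KO library reached the lower Tet1-WT library. On the log2 scale H19 fell by 2.24 ± 0.32 (adjusted p = 0.00631), Igf2 by 2.13 ± 0.42 (adjusted p = 0.0236) and Cdkn1c by 1.83 ± 0.37 (adjusted p = 0.0259), where 0.939% of all genes were called lower, 0.12% higher and 1.06% in either direction.

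Phlda2 in E12.5 males was at 5.99 and 5.70 CPM in Tet1-WT and at 18.8 and 12.01 CPM in Tet1-KO, and Slc22a18 at 0 and 1.69 CPM against 4.38 and 3.87 CPM. Neither gene's libraries overlapped between genotypes, and neither passed the test, with an adjusted p of 0.248 for the Phlda2 difference of 1.39 ± 0.54. Nr2f2 fell by 2.62 ± 0.41 (adjusted p = 0.00666) and Col3a1 by 2.47 ± 0.46 (adjusted p = 0.0186), 5 of the 15 mesenchyme markers were called lower, and their median log2 difference was -2.96. None of the 7 members was called with the mesenchyme level as a covariate, without Tet1-WT replicate 1, or without the Tet1-KO library named b. Without the Tet1-KO library named a, Cdkn1c lost its call.

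At E14.5 the genotypes no longer differed in H19, Igf2 or Cdkn1c by more than the test could call. In females H19 was at 11.4 and 12.51 CPM in Tet1-WT and at 15.9 and 9.63 CPM in Tet1-KO, and Cdkn1c at 48.8 and 42.9 CPM against 62.6 and 44.9 CPM, both with overlap. Igf2 was at 33.5 and 30.1 CPM against 29.0 and 20.9 CPM, slightly lower in both Tet1-KO libraries. Phlda2, in contrast, was at 64.4 and 138 CPM in Tet1-WT and at 503.5 and 482 CPM in Tet1-KO. Both Tet1-KO libraries stood far above both Tet1-WT libraries, with a log2 difference of 2.29 ± 0.50 (adjusted p = 0.0137), and Phlda2 was the 1 member called higher where 3.36% of all genes were, 3.29% were called lower and 6.65% in either direction. Slc22a18 beside it was at 21.5 and 37.1 CPM against 43.4 and 43.1 CPM.

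Mesenchyme RNA was low on both sides of this comparison, with Nr2f2 at 6.80 and 5.41 CPM against 1.85 and 4.50 CPM, and 1 of the 15 mesenchyme markers, the collagen gene Col1a1, was called lower. The germ cell markers moved in this comparison too, with 7 of 12 called higher in Tet1-KO. At E10.5, the other Tet1-KO comparison in which Phlda2 was called higher, 8 of 12 were. Their part in the Phlda2 results was not tested. The E14.5 difference of Phlda2 was 1.95 ± 0.66 with the mesenchyme level as a covariate and then missed the threshold (adjusted p = 0.12). It also missed it without Tet1-WT replicate 1 (1.85, adjusted p = 0.198) and without the Tet1-KO library named b (2.36, adjusted p = 0.0655).

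In E14.5 males no member was called in edgeR's test or in DESeq2, and none reached an unadjusted p under 0.05. Cdkn1c was at 16.8 and 23.4 CPM in Tet1-WT and at 20.3 and 20.03 CPM in Tet1-KO. H19 was at 7.55 and 10.8 CPM against 5.87 and 5.52 CPM, and Igf2 at 2.20 and 2.72 CPM against 2.00 and 3.22 CPM. Only H19 of these was lower in both Tet1-KO libraries than in both Tet1-WT libraries. The comparison called 0.0228% of all genes lower and 0.0797% higher, 0.102% in all.

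**Figure D2:**
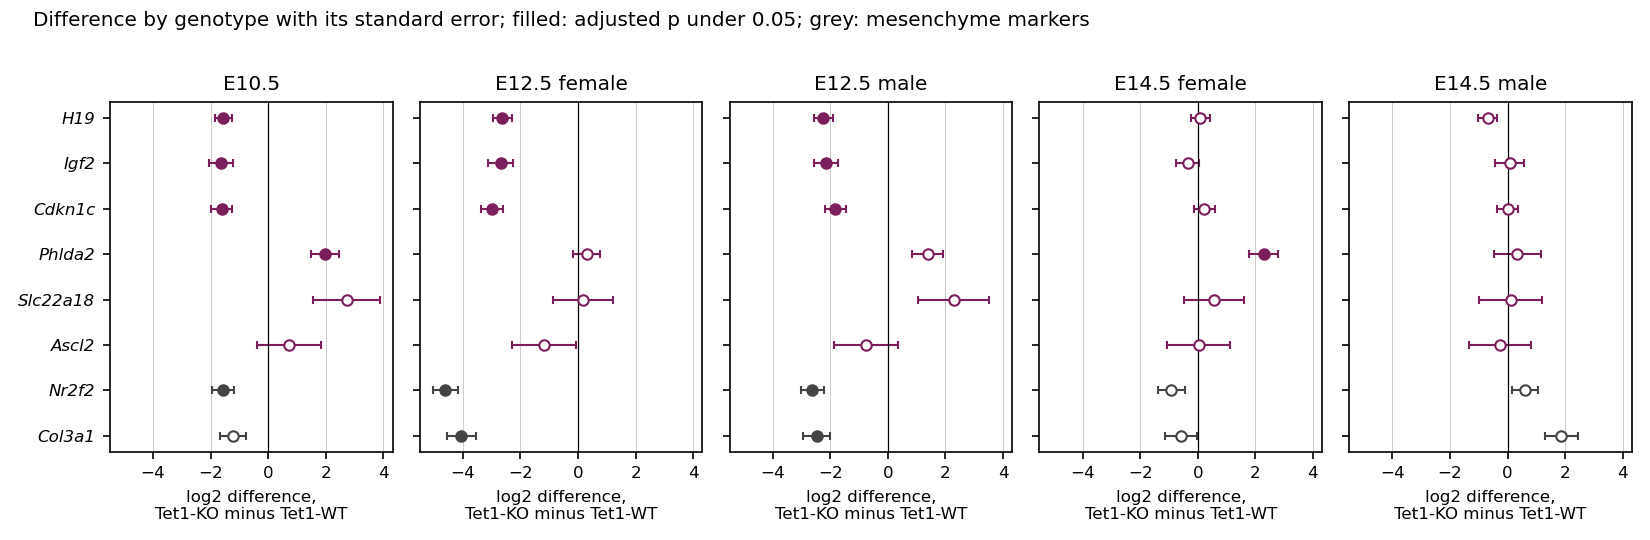
Fitted log2 difference of Tet1-KO minus Tet1-WT on the horizontal axis for 6 of the genes and for Nr2f2 and Col3a1 (grey), 1 panel per stage and sex; bars are 1 standard error and filled points have an adjusted p under 0.05. H19, Igf2 and Cdkn1c lie left of 0 with Nr2f2 at E10.5 and E12.5. At E14.5 none of them is filled, and H19 lies left of 0 in males. Phlda2 lies right of 0 in every panel and is filled at E10.5 and in E14.5 females. Kcnq1 is left out because most of its libraries hold 3 counts or fewer.

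Whether the Tet1-KO difference itself changed with stage or sex was tested as an interaction. In females it was larger, that is less negative, at E14.5 than at E12.5 by 2.72 ± 0.45 on the log2 scale for H19 (adjusted p = 0.017) and by 3.21 ± 0.52 for Cdkn1c (adjusted p = 0.0145), where 0.74% of all genes were called in that direction, 0.564% in the other and 1.3% in all. Igf2, at 2.33 ± 0.58, and Phlda2, at 1.99 ± 0.68, missed the threshold (adjusted p = 0.0618 and 0.172), so that the Phlda2 difference of E14.5 females was not shown to differ from that at E12.5. Nr2f2, at 3.69 ± 0.62, and Col3a1, at 3.48 ± 0.73, were called the same way (adjusted p = 0.018 and 0.0316). No member was called without Tet1-KO library b of E12.5, without Tet1-WT replicate 1 of E14.5, in a fit of these 8 libraries alone, or with the mesenchyme level as a covariate. Without Tet1-WT replicate 2 of E12.5, Cdkn1c missed the threshold (adjusted p = 0.0509). In males the same contrast was 1.54 ± 0.45 for H19, 2.21 ± 0.65 for Igf2 and 1.83 ± 0.51 for Cdkn1c, with adjusted p of 0.119, 0.119 and 0.104 in edgeR, where 0.734% of all genes were called higher, 0.0683% lower and 0.803% in all. DESeq2 called these 3 genes, and edgeR called H19 and Cdkn1c without Tet1-WT replicate 2 of E12.5. Nr2f2 and Col3a1 were called in this contrast in males, at 3.21 ± 0.60 and 4.33 ± 0.74 (adjusted p = 0.0259 and 0.0143), and 3 of the 15 mesenchyme markers were called in all. Between the sexes no member's Tet1-KO difference was called at E12.5, where no gene of 17567 was, or at E14.5, where 1.43% of genes were (0.951% higher and 0.478% lower), in edgeR or in DESeq2. At E12.5 Cdkn1c had a difference of 1.15 ± 0.51 with an unadjusted p of 0.0381 (adjusted p = 0.862), and no member had one under 0.05 at E14.5.

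Along the wild-type course from E10.5 to E12.5, H19 and Igf2 were called lower in both sexes, while Phlda2 was called higher in females and lower in males. On the log2 scale H19 fell in females by 2.30 ± 0.31 (adjusted p = 0.000219) and Igf2 by 2.56 ± 0.42 (adjusted p = 0.00086), 2 of 7 members where 4.83% of genes were called lower. Phlda2 rose by 2.44 ± 0.50 (adjusted p = 0.00442) and Slc22a18 by 3.93 ± 1.20 (adjusted p = 0.041), where 8.81% of genes were called higher and 13.6% in either direction. The Slc22a18 rise missed the threshold without any 1 of the 4 libraries and in DESeq2 (adjusted p = 0.0501), and that of Phlda2 without E10.5 replicate 2 (adjusted p = 0.0533). In males H19 fell by 1.93 ± 0.31 (adjusted p = 0.00109), Igf2 by 1.67 ± 0.41 (adjusted p = 0.0168) and Phlda2 by 3.43 ± 0.55 (adjusted p = 0.00104), 3 of 7 where 3.05% were called lower, 6.4% higher and 9.45% in all. The Igf2 call in males was lost without E10.5 replicate 1 or E12.5 male replicate 2. Over these intervals Nr2f2 had log2 differences of -1.07 ± 0.39 in females and -0.83 ± 0.38 in males, neither of which was called (adjusted p = 0.0808 and 0.206). Col3a1 was called lower in females, at -1.48 ± 0.45 (adjusted p = 0.0372), and not in males (adjusted p = 0.559). Of the 12 germ cell markers 10 were called higher in females and 9 in males, and their part in these results was not tested. Cdkn1c in males had a log2 difference of -0.99 ± 0.36 and missed the threshold (adjusted p = 0.099), but was called without E12.5 male replicate 1 (-1.70, adjusted p = 0.0146) and in DESeq2.

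From E12.5 to E14.5 H19, Igf2, Cdkn1c and Phlda2 were called lower in both sexes of Tet1-WT, 4 of 7 members where 14% of all genes were called lower in females and 7.75% in males. None was called higher, where 11.3% and 4.92% were, which makes 25.3% and 12.7% in either direction. In females H19 fell by 3.30 ± 0.34 (adjusted p = 8.63e-06), Igf2 by 1.43 ± 0.41 (adjusted p = 0.017), Cdkn1c by 1.95 ± 0.37 (adjusted p = 0.00101) and Phlda2 by 1.75 ± 0.49 (adjusted p = 0.0149). In males Igf2 went from 206 and 114 CPM to 2.20 and 2.72 CPM, a log2 difference of -6.01 ± 0.51 (adjusted p = 4.37e-06), the largest of the 4. H19 fell there by 4.03 ± 0.34 (adjusted p = 4.37e-06), Cdkn1c by 2.59 ± 0.38 (adjusted p = 0.000454) and Phlda2 by 2.83 ± 0.67 (adjusted p = 0.0116). Nr2f2 fell by 5.74 ± 0.48 in females and by 6.66 ± 0.50 in males, and 13 of the 15 mesenchyme markers were called lower in each sex. Of the 12 germ cell markers 9 were called lower and 1 higher in females, with a median log2 difference of -1.83. In males 2 were called lower and 5 higher. The part of the germ cell markers in these results was not tested. With the mesenchyme level as a covariate none of the 4 genes was called in either sex. In females Igf2 also lost its call without E12.5 replicate 1 or either E14.5 replicate, and Phlda2 without E12.5 replicate 2 or E14.5 replicate 1. In males Phlda2 lost it without E12.5 replicate 1. The male Phlda2 difference was -2.01 without E14.5 replicate 1, which is at 0, and -9.61 without E14.5 replicate 2, where the library left is at 0 and the fitted value depends on the prior count.

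Between the sexes, Phlda2 was the member that stood furthest apart. In Tet1-WT at E12.5 it was at 249.8 and 431 CPM in females and at 5.99 and 5.70 CPM in males, 58.1-fold lower in males (log2 difference -5.86 ± 0.60, adjusted p = 0.000232), where 0.33% of all genes were called lower in males, 0.245% higher and 0.575% in all. At E14.5 it was at 64.4 and 138 CPM in females and at 0 and 1.44 CPM in males, with a log2 difference of males minus females of -6.94 ± 0.68 (adjusted p = 3.05e-06). It was -6.12 without male replicate 1, which is at 0, and -13.72 without male replicate 2. Slc22a18 had the same order, with 31.6 and 28.6 CPM in E12.5 females against 0 and 1.69 CPM in males. It was at 21.5 and 37.1 CPM in E14.5 females against 0 and 6.79 CPM in males. These differences, -5.15 ± 1.31 and -3.07 ± 1.14, did not pass edgeR's test (adjusted p = 0.0885 and 0.0563), while DESeq2 called that at E12.5 (adjusted p = 0.0174). With 1 library left out they ran from -4.13 to -11.99 at E12.5 and from -2.10 to -11.93 at E14.5. The far ends came without male replicate 2, which leaves a library at 0, and at E14.5 edgeR then called the difference (adjusted p = 0.000682). Igf2 at E12.5 was higher in males by 0.90 ± 0.40 and was not called (adjusted p = 0.365).

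At E14.5 the sexes also parted in Igf2 and Cdkn1c. Igf2 was at 33.5 and 30.1 CPM in Tet1-WT females and at 2.20 and 2.72 CPM in males, 12.8-fold lower in males (log2 difference -3.68 ± 0.48, adjusted p = 3.7e-05). Cdkn1c was at 48.8 and 42.9 CPM in females against 16.8 and 23.4 CPM in males (log2 difference -1.19 ± 0.36, adjusted p = 0.023), a call lost without female or male replicate 1. H19 was at 11.4 and 12.51 CPM against 7.55 and 10.8 CPM and was not called. With Phlda2 these were 3 of 7 members called lower in males, where 14.1% of all genes were, 14% were called higher and 28.1% in all. Nr2f2 differed less between these groups, at 6.80 and 5.41 CPM in females and 3.57 and 4.12 CPM in males (adjusted p = 0.291), and Col3a1, at 1.96 and 6.36 CPM against 0.83 and 1.32 CPM, was called lower in males (adjusted p = 0.0329). The germ cell markers summed to 6649 and 6334 CPM in these females and to 12210 and 12270 CPM in the males. Of the 12, 7 were called higher in males and none lower, and their part was not tested.

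Reads per Nr2f2 read set each gene against the gauge within a library, and are given as a description without a test. At E10.5 H19 had 0.867 and 0.797 reads per Nr2f2 read in Tet1-WT and 1.34 and 0.621 under the label Tet1-KO, Igf2 had 0.877 and 0.612 against 0.715 and 0.686, and Cdkn1c 0.416 and 0.292 against 0.441 and 0.291. For Igf2 the ratios labelled Tet1-KO lay within those of Tet1-WT, and for Cdkn1c and H19 the labels overlapped. Per Col3a1 read, H19 (1.93 and 1.66 against 2.07 and 1.09) and Cdkn1c (0.927 and 0.609 against 0.681 and 0.513) overlapped too, but Igf2 did not, at 1.95 and 1.28 in Tet1-WT against 1.10 and 1.21. In E12.5 females the ratios were higher in Tet1-KO for all 3 genes, at 1.44 and 1.34 against 0.554 and 0.249 for H19, at 0.955 and 1.02 against 0.467 and 0.152 for Igf2, and at 1.72 and 1.58 against 0.569 and 0.517 for Cdkn1c. The levels of these 3 genes thus lay closer between the genotypes than that of Nr2f2. The ratios to Col3a1 were likewise higher in both Tet1-KO libraries for all 3 genes, such as 2.45 and 3.16 against 1.08 and 0.941 for H19. In E12.5 males the genotypes overlapped for H19 (0.444 and 0.308 against 0.569 and 0.426) and for Igf2 (0.452 and 0.351 against 0.721 and 0.393), while Cdkn1c was higher in Tet1-KO, at 0.588 and 0.474 against 0.371 and 0.227. Per Col3a1 read, H19 did not overlap in these males, at 0.748 and 0.524 in Tet1-WT against 0.768 and 0.775 in Tet1-KO, nor did Cdkn1c, at 0.625 and 0.386 against 0.794 and 0.863. Igf2 did, at 0.762 and 0.597 against 0.973 and 0.715.

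At E14.5 the ratios to Nr2f2 differed by gene and by sex. Cdkn1c had 7.18 and 7.94 reads per Nr2f2 read in Tet1-WT females and 4.72 and 5.68 in males, above every E10.5 and E12.5 library of the Tet1 cross, whose highest ratio was 1.72. Igf2 had 4.93 and 5.57 in Tet1-WT females but 0.617 and 0.66 in males. The male ratios lay above those of E12.5 Tet1-WT males (0.452 and 0.351). In E12.5 Tet1-KO males the ratios were 0.721 and 0.393. Per Col3a1 read, Igf2 in E14.5 Tet1-WT males was at 2.64 and 2.06, above the 0.597 to 0.973 of E12.5 males of both genotypes. Cdkn1c per Col3a1 read was at 24.8 and 6.75 in E14.5 Tet1-WT females and at 20.2 and 17.7 in males, so that the sexes overlapped. All E14.5 ratios rest on few reads of the gauge genes. Nr2f2 had 135 and 51 reads in Tet1-WT females, 60 and 103 in Tet1-WT males, and 28 and 100 in Tet1-KO females, whose Cdkn1c ratios were 33.9 and 9.97, while Col3a1 had 14 to 94 reads in the 8 libraries.

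**Figure D3:**
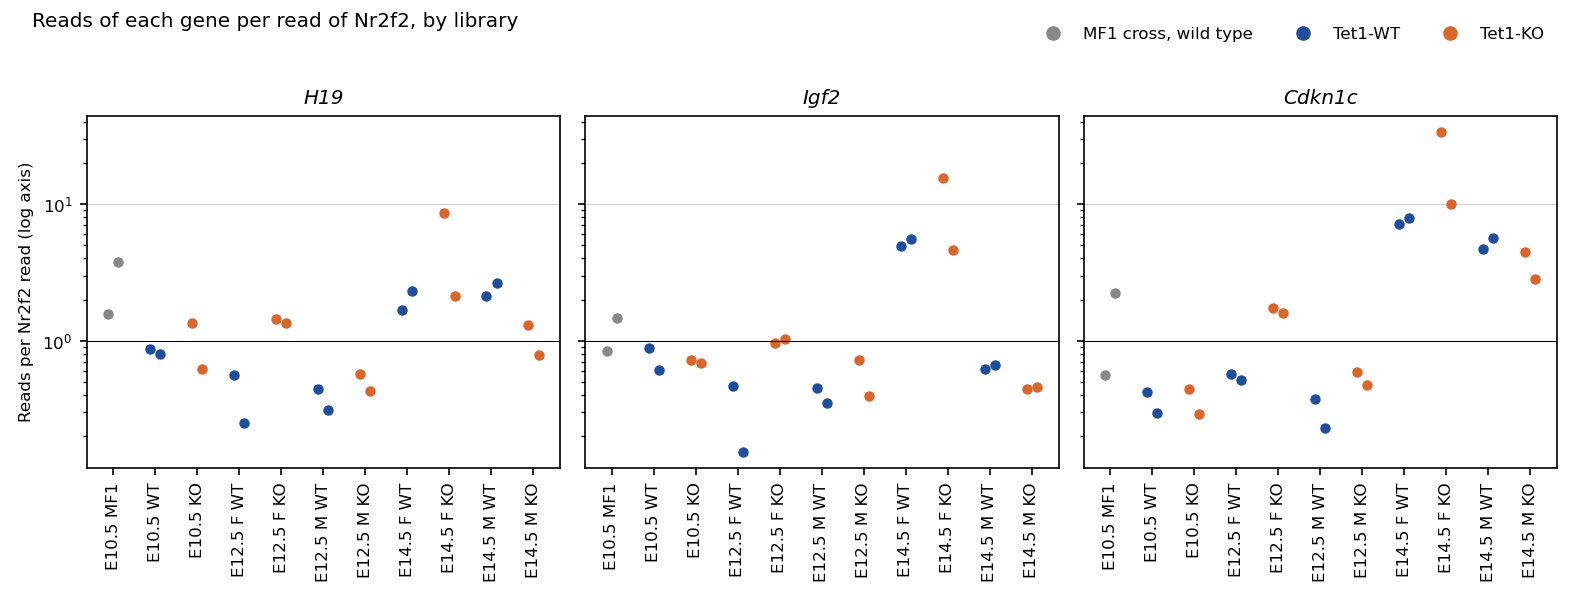
Reads of H19, Igf2 and Cdkn1c per read of Nr2f2 in each library (points, log vertical axis), by group; the horizontal line marks a ratio of 1. Ratios lie between 0.152 and 1.72 in all E10.5 and E12.5 libraries of the Tet1 cross, and are highest in E14.5 females for Igf2 and Cdkn1c.

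Across the 20 libraries of the Tet1 cross the members fell into a set that followed the gauge and others that did not. These are Pearson correlations of log2(CPM + 1) over libraries that share stage, genotype and sorting, given as a description. With Nr2f2 the correlation was 0.945 for H19, 0.86 for Igf2 and 0.82 for Cdkn1c, and 0.302%, 0.985% and 1.48% of the 17566 other genes tested had a higher one with the respective member. It was 0.162 for Phlda2, -0.308 for Slc22a18, -0.525 for Ascl2 and -0.114 for Kcnq1. H19 and Igf2 correlated at 0.93, Igf2 and Cdkn1c at 0.9, and Phlda2 with its neighbour Slc22a18 at 0.803. The genes most like H19 were Hmga2 (0.982), Tmem98 and Gpc3 (0.978 each), and those most like Igf2 were Cald1 (0.975), Gpc3 (0.961) and Pmp22 (0.96). For Cdkn1c they were Hmgn3 (0.941), Tcte1 (0.938) and Chst2 (0.932), and for Phlda2 they were Porcn (0.973), Msx2 (0.957) and Tnnt3 (0.933). For Slc22a18 they were Dnah8, Sh3bgr (0.884 each) and Dlx3 (0.862), for Ascl2 they included Retreg1 (0.888) and Henmt1 (0.876), and for the near-silent Kcnq1 Slco2a1 (0.92), 1700066B19Rik (0.871) and Gm13231 (0.862).

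**Figure D4:**
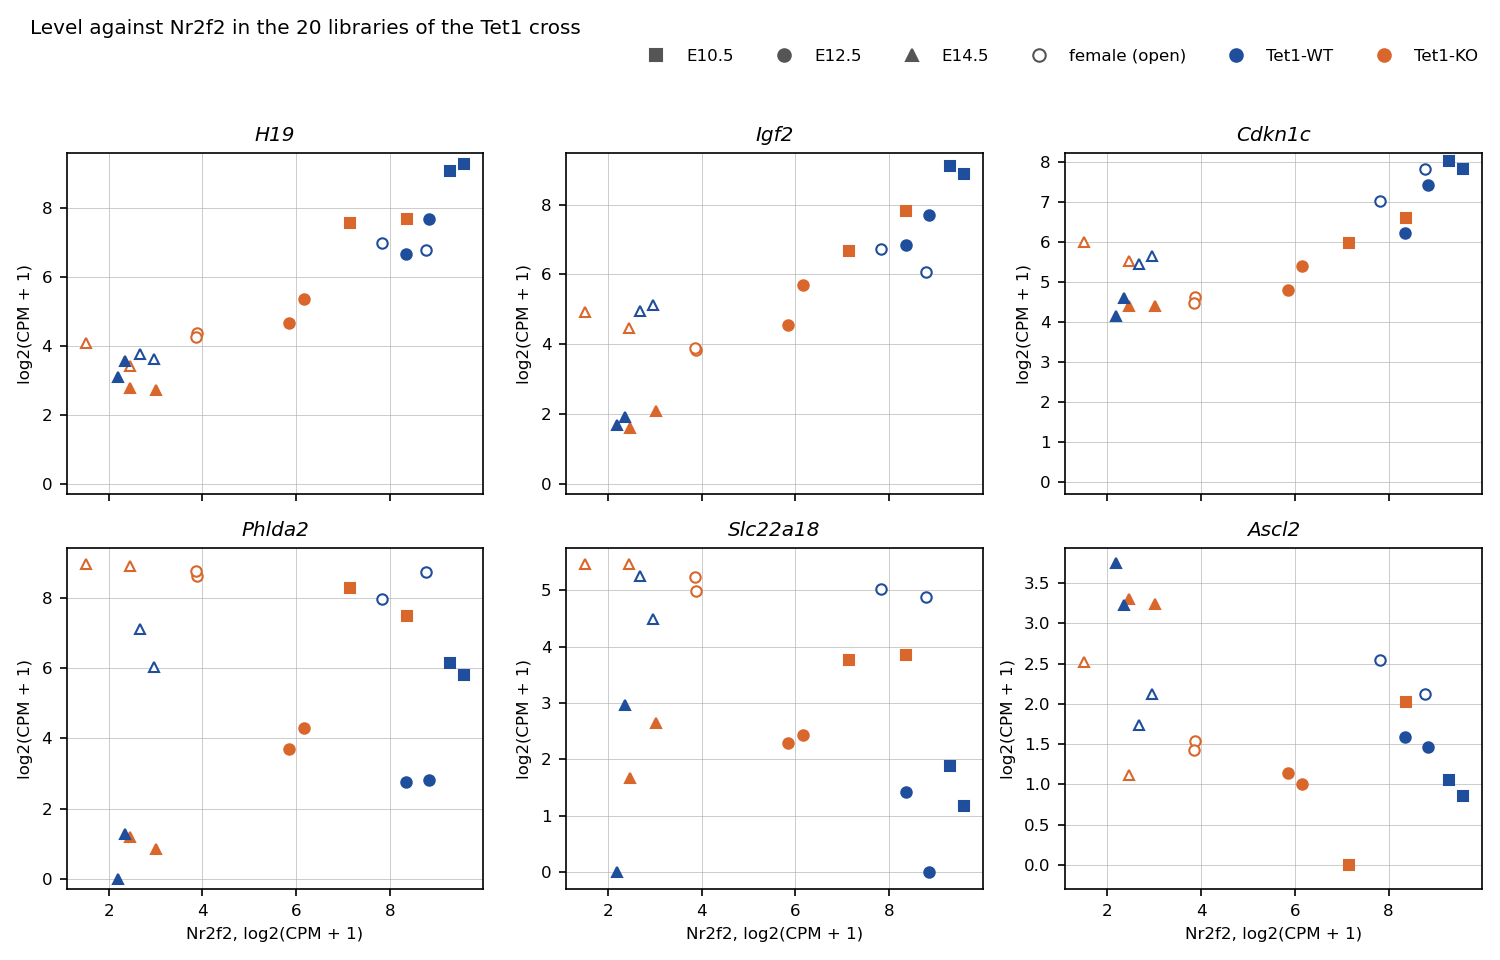
Level of 6 of the genes against the level of Nr2f2, both as log2(CPM + 1), in the 20 libraries of the Tet1 cross; squares are E10.5, circles E12.5, triangles E14.5, open symbols females, blue Tet1-WT and orange Tet1-KO. H19, Igf2 and Cdkn1c rise with Nr2f2 (Pearson correlations 0.945, 0.86 and 0.82), Igf2 splits by sex at E14.5, and Phlda2 and Slc22a18 separate by sex at every level of Nr2f2 from E12.5 on.

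Ascl2, the trophoblast factor, stayed below 13 CPM in every library and was called in none of the comparisons within the Tet1 cross. Its highest levels were in E14.5 males, at 12.4 and 8.35 CPM in Tet1-WT and at 8.90 and 8.44 CPM in Tet1-KO, where E12.5 Tet1-WT males had 1.75 and 2.01 CPM. The difference of 2.46 ± 1.14 on the log2 scale did not pass the test (adjusted p = 0.176) but was called in a fit of those 4 libraries alone (adjusted p = 0.0346). The 4 E14.5 male libraries were above all others, of which the highest was an E12.5 female Tet1-WT library at 4.83 CPM. Kcnq1 held at most 23 counts in a library of the Tet1 cross and none in 11 of its 20 libraries, which allows up to 3 counts, or 0.12 to 0.252 CPM, in each of those 11. Reads of Kcnq1 cannot be told apart from those of Kcnq1ot1, which runs through it on the other strand, because the strand setting of the counting is not given, and the same holds for Igf2 and its antisense neighbour Igf2os.

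Levels were compared between members per kilobase of exon. In E10.5 Tet1-WT the order was H19 (234 CPM per kb), Cdkn1c (119), Igf2 (88.8) and Phlda2 (56.1), with Slc22a18 at 1.16 and Ascl2 and Kcnq1 below it. Phlda2 headed the order in the E10.5 libraries labelled Tet1-KO (219 CPM per kb) and in all 4 groups of females, where it was 3.49 to 18.8 times the next member. It also headed the order in the wild-type MF1 cross at E10.5, at 194.5 CPM per kb and 10.2 times the next member. In E12.5 Tet1-WT males H19 (61.5) and Cdkn1c (59.6) did not differ beyond the spread of their libraries. In E14.5 males Cdkn1c came first at 9.86 CPM per kb in Tet1-WT and 9.88 in Tet1-KO, followed by Ascl2 at 6.398 and 5.34.

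The MF1 cross at E10.5 gave a different profile from E10.5 Tet1-WT. In its 2 libraries H19 was at 35.5 and 58.0 CPM and Igf2 at 18.9 and 22.4 CPM, all below every E10.5 library of the Tet1 cross. In a separate fit of 4 libraries and 15500 genes, H19 had a log2 difference of -3.63 ± 0.40 (adjusted p = 0.046) and Igf2 one of -4.63 ± 0.36 (adjusted p = 0.0351), 2 of the 6 members tested where 0.516% of genes were called lower, 0.0903% higher and 0.606% in all. Cdkn1c, at 12.6 and 34.7 CPM, had a log2 difference of -3.36 ± 0.58 and missed the threshold (adjusted p = 0.0792).

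Phlda2 was at 115 and 321 CPM in the MF1 cross, 1.79 ± 0.56 above Tet1-WT (adjusted p = 0.163). DESeq2 called both Cdkn1c and Phlda2. Leaving out any 1 of the 4 libraries added Cdkn1c to the calls, leaving out either MF1 library also added Phlda2 (2.50 without replicate 1 and 0.86 without replicate 2), and leaving out MF1 replicate 1 added Slc22a18. Slc22a18 was at 5.13 and 19.5 CPM and Ascl2 at 0 in both MF1 libraries, which puts Ascl2 at least 19.2-fold lower than in Tet1-WT at 3 counts per library (adjusted p = 0.152, not called). Nr2f2 was at 22.7 and 15.4 CPM and Col3a1 at 4.35 and 3.37 CPM in the MF1 cross, called lower with 3 other of the 15 mesenchyme markers, whose median log2 difference was -5.54. The germ cell markers summed to 6107 and 7540 CPM there. Cross, cell number, RNA kit and depth differed together between these groups and cannot be told apart.

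Genes around the members were followed as a list of 19, of which 16 were tested. In the 5 Tet1-KO comparisons 1 rose and 2 fell at E10.5, 1 fell in each sex at E12.5, and none was called at E14.5. Of all genes, 4.1% were called higher and 4.7% lower at E10.5, 8.81% in all. At E12.5 1.15% and 0.939% were called lower in females and males, and at E14.5 6.65% and 0.102% were called in either direction. The gene that fell at both stages was Cd81, a tetraspanin of the cell surface. Cd81 had mean levels of 122 against 237 CPM at E10.5, 62.8 against 176 CPM in E12.5 females and 70.0 against 209 CPM in E12.5 males, with log2 differences of -0.95, -1.49 and -1.58. Nr2f2 was called lower in each of these comparisons as well. At E10.5 the mitochondrial ribosomal protein gene Mrpl23, beyond H19, rose by 0.79 (adjusted p = 0.0179) and Tssc4 fell by 0.79 (adjusted p = 0.0489), and Cars, past Phlda2, was not called (0.69, adjusted p = 0.0801). The list's median log2 difference was 0.03 at E10.5, -0.02 in E12.5 females and -0.60 in E12.5 males, where the median of all genes was 0.00, -0.02 and 0.00.

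Of 38 imprinted genes of other regions tested, 4 fell and 1 rose in the libraries labelled Tet1-KO at E10.5, 8 fell and none rose in each sex at E12.5, 1 fell and 4 rose in E14.5 females, and none was called in E14.5 males. Of all genes 4.7% were called lower and 4.1% higher at E10.5, and 1.15% and 0.939% lower in E12.5 females and males. In E14.5 females 3.29% were called lower and 3.36% higher, and in E14.5 males 0.102% were called in all. Asb4 fell by 2.44 at E10.5, by 2.03 in E12.5 females and by 1.75 in E12.5 males (log2) (adjusted p = 0.00127, 0.00798 and 0.0243). Dlk1, a Notch ligand relative, went from a mean of 12.4 to 0.61 CPM in E12.5 females (adjusted p = 0.00304). Slc38a4, an amino acid transporter, rose in E14.5 females from 61.6 to 180.6 CPM (log2 difference 1.56, adjusted p = 0.00252), the comparison in which Phlda2 rose. Gatm, a creatine synthesis enzyme, was at 0 in both E10.5 libraries labelled Tet1-KO and at a mean of 4.43 CPM in Tet1-WT. The falls given for Asb4, Dlk1 and Gatm are from comparisons in which Nr2f2 was called lower as well. The part of mesenchyme RNA in them was not tested.

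Among 17 genes of the insulin-like growth factor pathway that IGF2 signals through, 2 fell at E10.5, 4 in E12.5 females, 3 in E12.5 males and 1 in E14.5 females, and none rose, where 4.7%, 1.15%, 0.939% and 3.29% of all genes were called lower. The median of the list was -0.74, -0.85, -1.32 and -0.13 in these comparisons. Igf1, the ligand related to IGF2, fell by 3.59 at E10.5, by 5.07 in E12.5 females and by 4.53 in E12.5 males on the log2 scale (adjusted p = 0.00488, 0.00192 and 0.00663). Grb10, an imprinted adaptor that restrains the receptor, went from a mean of 198 to 21.1 CPM in E12.5 females and from 436 to 18.4 CPM in E12.5 males (adjusted p = 0.00494 and 0.00314). The binding protein gene Igfbp5 fell by 3.42 and 3.36 in E12.5 females and males and by 2.96 in E14.5 females, and Igfbp4 by 2.36 in E12.5 females (adjusted p = 0.029). Each of these comparisons except that at E14.5 is one in which Nr2f2 was called lower as well.

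Of 19 genes that set, guard or erase imprints, 1 rose and 1 fell at E10.5, 2 fell in E12.5 females and 1 rose in E14.5 females, where 4.1% of all genes rose and 4.7% fell, 1.15% fell and 3.36% rose. Dppa3, which guards DNA methylation in the early embryo and marks PGCs, rose by 1.76 in the E10.5 libraries labelled Tet1-KO (means 2673 against 788 CPM, adjusted p = 0.00158) and by 1.27 in E14.5 females (1653 against 688 CPM, adjusted p = 0.00987). Dppa3 is also among the 12 germ cell markers, of which 8 were called higher at E10.5 and 7 in E14.5 females. Their part in its rise was not tested. Uhrf1, which brings the maintenance methyltransferase to DNA, fell by 1.43 at E10.5 (116 against 312 CPM, adjusted p = 0.00851). Zfp57, a zinc finger protein that protects imprints, went from 45.9 to 3.50 CPM in E12.5 females (adjusted p = 0.029), and Tet1 itself fell there by 1.73 (adjusted p = 0.0303). In the comparisons where Uhrf1 and Zfp57 fell, Nr2f2 was called lower as well. No gene of this list was called in E12.5 or E14.5 males, where 1.06% and 0.102% of all genes were.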

How the data were processed

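The authors deposited raw counts of reads per gene, 1 table for the 20 libraries of the Tet1 cross and 1 for the 2 libraries of the MF1 cross. Per the submitters' processing notes, reads were trimmed with Trimmomatic, aligned to mm9 (TopHat2 2.0.2, Bowtie 0.12.8), and HTSeq 0.5.3p9 gave the counts. Strand setting and handling of reads that fit several places are not given in the sources used here. The labels state 15 cycles of cDNA amplification, so counts are not counts of independent molecules. Among the columns, 8 of Tet1-KO at E12.5 and E14.5 share header names in pairs, so their libraries carry no replicate number and are named a and b.

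The main models were fitted in edgeR 4.0.16 (R 4.3.3). Genes were filtered (filterByExpr, minimum count 10, minimum total 15) and scaled by TMM, 1 coefficient was fitted per group over all 20 libraries, and contrasts were tested with edgeR's robust quasi-likelihood test, with Benjamini-Hochberg adjustment over the 17567 genes tested and calls at an adjusted p under 0.05. The common biological coefficient of variation was 0.46 with 10 residual degrees of freedom, and 0.784 in the 4-library fit for the MF1 cross. Log2 differences use a prior count of 0.125, and their standard errors come from the F statistic. The procedure was tested on simulated data. Symbols were matched by Ensembl identifier, and exon lengths come from a later build than mm9, so gene positions are not given. Alternatives were DESeq2 1.42.0, relative log expression scaling, no filter, a replicate block, the compared libraries alone, the mesenchyme level as a covariate, and leaving out each library.

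The 7 genes, the other lists and the comparisons were chosen with earlier results of these data known. Other genes named are up to 4 per list with the smallest adjusted p over the Tet1-KO comparisons, and the 3 genes most like each member, of which 1 is not reported here, and Col1a1 was named after its value was seen. Member log2 differences are given only among the 50 results with an unadjusted p under 0.05. Kcnq1ot1, Rian, Mirg, Snrpn and Peg13 were on lists and had no match.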

Additional observations from a re-analysis of the deposited data

Results flagged for a closer look

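The Tet1-KO difference in females was called different between E12.5 and E14.5 for 2 of the 7 genes, by edgeR's test of the interaction. For H19 the log2 difference at E14.5 exceeded that at E12.5 by 2.72 (adjusted p = 0.017), and for Cdkn1c by 3.21 (adjusted p = 0.0145). Of all genes, 0.74% were called in that direction, 0.564% in the other and 1.3% in all. Neither gene was called in a fit of the compared libraries alone or with the mesenchyme level as a covariate. H19 was at 125 and 109 CPM in E12.5 Tet1-WT females against 19.7 and 18.0 CPM in Tet1-KO, and at 11.4 and 12.51 CPM against 15.9 and 9.63 CPM at E14.5. The mesenchyme markers Nr2f2 and Col3a1 were called in the same interaction, by 3.69 and 3.48, and their part in the result was not tested.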

How the results depend on the processing

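The 50 log2 differences of the 7 genes with an unadjusted p under 0.05 had 232 alternative values from fits that left out 1 library. The direction was kept in all of these values, and in all but 4 of 274 values under the other alternatives. The exceptions came with the mesenchyme level as a covariate: Igf2 in E12.5 females by genotype (0.20), Igf2 (1.63) and Cdkn1c (0.78) in Tet1-WT females from E12.5 to E14.5, and Cdkn1c in Tet1-WT males over that interval (0.80). Among 61 other member differences, 75 of 617 alternative values changed sign. Numbers of members called moved as follows, and the cause was not tested. The mesenchyme covariate left 0 called for Tet1-KO against Tet1-WT at E10.5, in E12.5 females, E12.5 males and E14.5 females, for Tet1-WT from E12.5 to E14.5 in females and males, and for the female interaction. The mesenchyme level itself differed between the groups of these comparisons, so this setting cannot separate it from genotype or stage. The compared libraries alone left 0 at E10.5 and 0 for the female interaction. With no filter 5 were called in E12.5 males by genotype, 3 in E12.5 males against females, 4 in the MF1 cross, 4 and 3 for the female and male interactions of stage, and 1 for that of sex at E14.5. DESeq2 called 2 in E12.5 males against females, 4 in the MF1 cross and 3 for the male interaction. With 1 library left out the counts by genotype ran from 1 to 5 at E10.5, 2 to 3 in E12.5 females, 0 to 3 in E12.5 males and 0 to 1 in E14.5 females, and stayed at 0 in E14.5 males. They ran from 2 to 3 for Tet1-WT E10.5 to E12.5 females, 2 to 4 for males, 2 to 3 for females and 3 to 5 for males from E12.5 to E14.5, 1 for males against females at E12.5 and 2 to 4 at E14.5, 3 to 5 for the MF1 cross, 0 to 2 for the female and for the male interaction, and were 0 for both interactions of sex. Where that left a group with 1 library, it was assumed to vary like the others.

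With the replicate number as a block, 3 members were called in the MF1 cross and 4 between the sexes of Tet1-WT at E14.5, through Cdkn1c and Slc22a18, and other counts with numbered groups were those of the main fit. Deviations of same-numbered libraries correlated at -0.0462 to 0.0276, so the numbers were not taken as pairs. No block could be fitted for comparisons with E12.5 or E14.5 Tet1-KO libraries, which carry no number. Low levels limit Kcnq1, for which no fold is given, and Ascl2 and Slc22a18, whose log2 differences among the 50 have standard errors of 1.14 to 2.18.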
